A study of Homo sapiens with 9 samples.

Results

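The 38 genes described here encode the core machinery that builds an autophagosome and fuses it with the lysosome. They were chosen by symbol from the 46427 genes of the count table, as known components of the pathway. Earlier results of these data were known when the genes were chosen. All 38 genes were found by symbol and passed the filter on low counts. They fall into 5 roles: 5 genes of initiation, 7 of the PI3K complex, 9 of lipid transfer, 10 of conjugation and 7 of fusion. Messenger RNA was sequenced from 9 libraries, all from the established human line H9 of embryonic stem cells (hESC), in 3 groups of 3. The first group was untreated, undifferentiated hESC. The second was untreated neural progenitor cells at day 11 of differentiation toward midbrain dopamine neurons (control NPC). The third was day 11 progenitors treated with bafilomycin A1 (BafA1 NPC). Both progenitor groups were made by dual-SMAD inhibition with 200 nM LDN193189 and 10 µM SB431542, inhibitors of BMP and TGF-beta receptors, with 2 µM purmorphamine, which activates Hedgehog signalling, and 3 µM CHIR99021, a GSK3 inhibitor. BafA1, which blocks the proton pump of the lysosome (V-ATPase), was used at 10 nM for 6 h. Several windows of days are named for the treatment, with the one that applied to these libraries not given in the sources used here. Replicates are called biological, without saying whether they were separate cultures, so p-values measure the spread between these libraries.

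In macroautophagy the ULK1 kinase complex starts the process, and the lipid kinase complex around BECN1 and PIK3C3 then marks the site with phosphatidylinositol 3-phosphate. WIPI proteins read that lipid, ATG2 proteins carry lipids into the growing membrane, ATG9A scrambles lipids between its leaflets, and VMP1 and TMEM41B do so in the endoplasmic reticulum. A pair of ubiquitin-like conjugation reactions couples ATG12 to ATG5 and attaches ATG8 proteins to the membrane, and the SNARE proteins STX17, SNAP29 and VAMP8 fuse the closed vesicle with the lysosome. BafA1 stops acidification of the lysosome and thereby the degradation of what autophagosomes deliver. Neural progenitors are known to rely on autophagy for turnover of proteins and organelles.

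Total counts were 43124679 to 69703791 per library. Levels are given as CPM, counts scaled to a common library size, with TMM factors, which set each library against most other genes, and changes as edgeR log2 fold changes with their standard error (SE). A gene was called at an adjusted p under 0.05 over the 20685 genes tested. The labels of the groups were checked on marker genes. The summed CPM of 8 pluripotency markers was 5240 to 5600 in the hESC libraries, 811 to 889 in those of control NPC and 1110 to 1210 with BafA1, and POU5F1, TDGF1 and PRDM14 had no count in control NPC. In both NPC groups nearly all of that sum came from LIN28A (means of 537 and 786 CPM) and SOX2 (272 and 344 CPM), which neural progenitors also express. With BafA1 LIN28A, SOX2 and ZFP42 rose, DNMT3B fell (log2 change -0.62), and the other 4 were not called. All 8 floor plate and neural progenitor markers rose from hESC to control NPC, and their sum was 378 to 416, 1230 to 1510 and 1200 to 1540 CPM in the 3 groups. Of these markers FOXA2 (log2 change 0.68) and MSX1 (0.84) rose with BafA1, SOX1 (-0.67) and NR2F1 (-0.53) fell, and the other 4 were not called. The sum of 6 mesenchyme markers was 177 to 192 CPM in the hESC libraries, 1630 to 2720 in those of control NPC and 3090 to 3450 with BafA1, without overlap between the groups. With BafA1 the sum followed COL1A1 (means of 1210 and 1960 CPM) and COL1A2 (738 and 1100 CPM), which rose with PDGFRB, whereas LUM fell (log2 change -1.67) and COL3A1 (-0.18) and TWIST1 (-0.38) were not called. The part of these markers in the results below was not tested. In bulk RNA, fewer cells of a type and less RNA per cell cannot be told apart.

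Most initiation and lipid transfer genes fell with differentiation to day 11, and 4 fusion genes rose. BafA1 moved members of 4 roles in both directions, and in the fusion role 2 genes fell. By role, 0.0% to 33.3% of members rose with BafA1 and 28.6% to 40.0% fell. Over all genes 20.8% rose and 20.7% fell, and each role holds only 5 to 10 genes. In control NPC against hESC, 28 of 38 members (73.7%) were called, against 64.5% of all genes tested. Of these, 19 of 38 members (50.0%) fell, against 31.6% of all genes, and 9 (23.7%) rose, against 33.0% of all genes. The median log2 change of the members was -0.22, and that of all genes tested 0.03. In BafA1 NPC against control NPC, 19 of 38 members (50.0%) were called, against 41.5% of all genes tested. Of these, 12 members (31.6%) fell, against 20.7% of all genes, and 7 (18.4%) rose, against 20.8%. The median log2 change was -0.12 for the members and 0.00 for all genes. Every member called in either comparison had groups of libraries that did not overlap. The share of all called genes without overlap was not counted. The comparisons share the control libraries. The count of all genes called with BafA1 was 4309 higher and 4277 lower, and scaling by library size alone gave 3104 higher and 5681 lower, with the median of all genes moved by -0.12. Under that scaling 5 members rose and 18 fell.

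**Figure D1:**
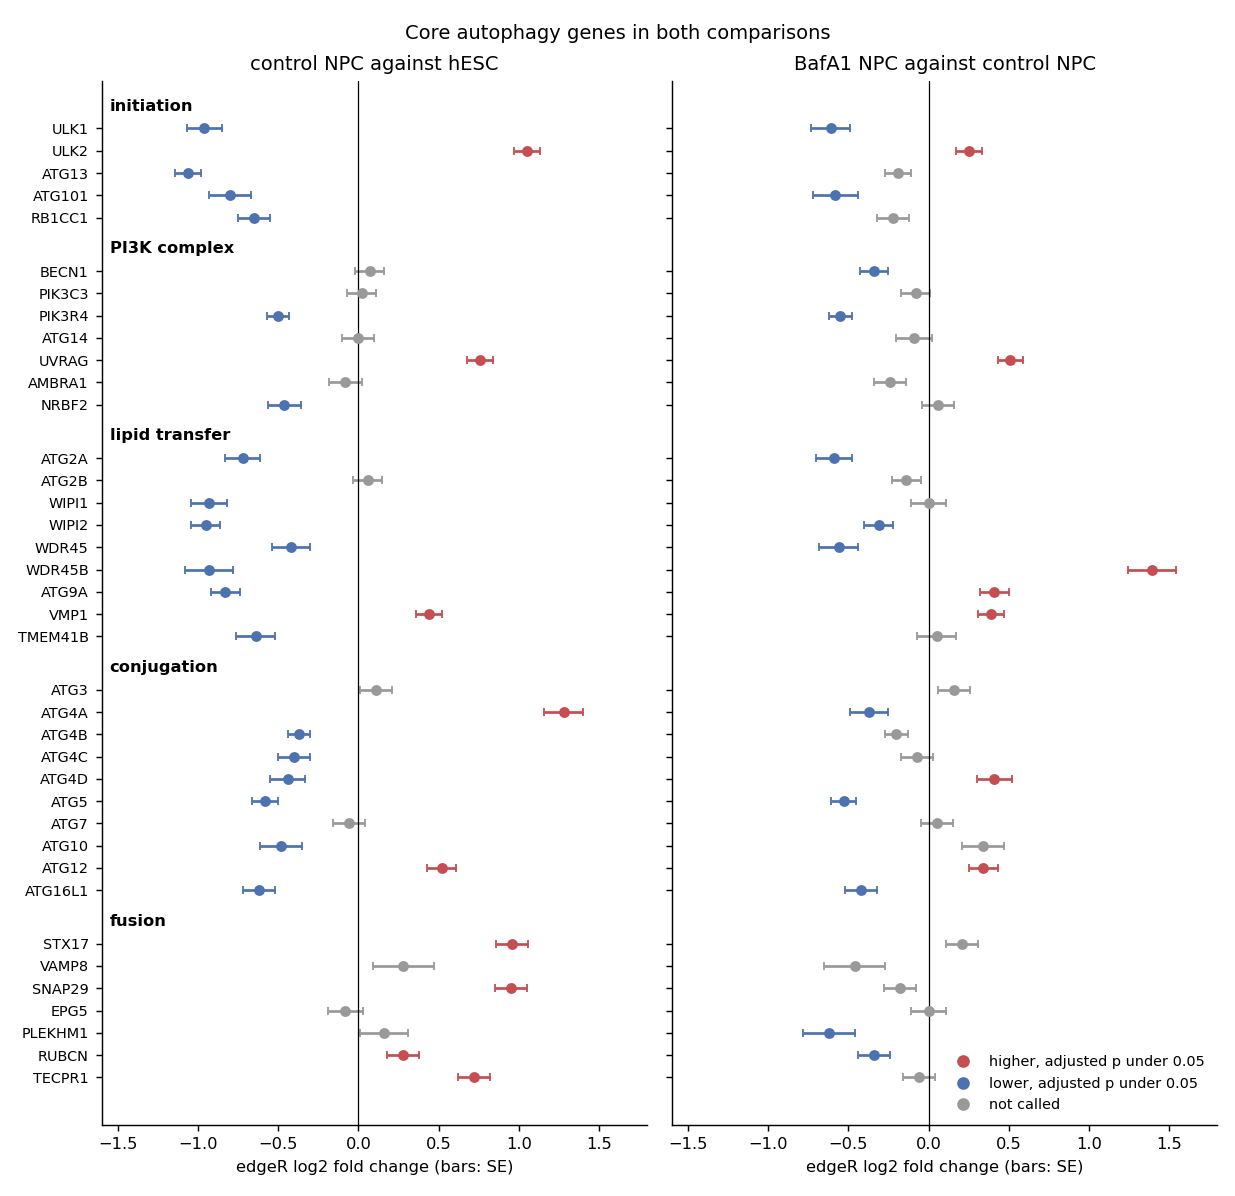
Log2 fold changes (x axis, edgeR, with SE bars) of the 38 genes, grouped by role on the y axis, for control NPC against hESC (left) and BafA1 NPC against control NPC (right), with 3 libraries per group. Red points are higher and blue points lower at an adjusted p under 0.05, and grey points were not called. On the left 19 points are blue, and no fusion gene is among them. On the right WDR45B lies farthest from 0, at 1.39.

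Of the 5 initiation genes, 4 fell and 1 rose in control NPC against hESC (median log2 change -0.80), and with BafA1 2 fell and 1 rose (median -0.22). The pair of kinases moved in opposite directions. ULK1, the kinase that starts autophagosome formation (chromosome 12, 131894622 to 131923150, GRCh38.p14), was at 104, 104 and 97.3 CPM in hESC, 58.4, 55.2 and 43.3 CPM in control NPC and 38.2, 31.2 and 33.4 CPM in BafA1 NPC. No library of a group reached the range of another, and the level was highest in hESC and lowest with BafA1. The log2 change of ULK1 was -0.96 ± 0.11 (SE) for control NPC against hESC (edgeR adjusted p = 1.4e-05) and -0.61 ± 0.12 for BafA1 NPC against control NPC (edgeR adjusted p = 0.00148). With trends of GC content and length removed, the BafA1 value of ULK1 was -0.92. ULK2, its paralog (chromosome 17, 19770830 to 19867936), was at 14.5, 14.3 and 15.2 CPM in hESC, 28.1, 31.1 and 31.7 CPM in control NPC and 37.5, 34.6 and 35.7 CPM in BafA1 NPC. Here the order was the reverse, lowest in hESC and highest with BafA1, again without overlap. The log2 change of ULK2 was 1.05 ± 0.08 against hESC (edgeR adjusted p = 4.71e-07) and 0.25 ± 0.08 with BafA1 (edgeR adjusted p = 0.0327). The second call was lost under 11 of 18 alternatives (adjusted p from 0.0173 to 0.33), among them leaving out control replicate 1 or 2 or BafA1 replicate 1 or 3.

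The start regions of both kinase genes are shown because the genes moved in opposite directions. Each window runs from 250 bases before to 50 bases after the annotated start, written 5′ to 3′ on the gene's strand, from RefSeq on GRCh38.p14. ULK1 is chr12:131894372-131894671 on the plus strand and ULK2 is chr17:19867887-19868186 on the minus strand. Capitals mark ACGTG or GCGTG, the core of the hypoxia response element, on either strand, so that CACGT and CACGC are the reverse complements.
ULK1: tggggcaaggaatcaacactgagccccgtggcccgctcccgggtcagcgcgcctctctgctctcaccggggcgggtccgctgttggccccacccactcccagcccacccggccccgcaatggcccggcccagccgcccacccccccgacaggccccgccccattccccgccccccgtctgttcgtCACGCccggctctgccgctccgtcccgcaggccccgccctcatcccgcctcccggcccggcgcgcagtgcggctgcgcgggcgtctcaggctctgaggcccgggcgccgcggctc
ULK2: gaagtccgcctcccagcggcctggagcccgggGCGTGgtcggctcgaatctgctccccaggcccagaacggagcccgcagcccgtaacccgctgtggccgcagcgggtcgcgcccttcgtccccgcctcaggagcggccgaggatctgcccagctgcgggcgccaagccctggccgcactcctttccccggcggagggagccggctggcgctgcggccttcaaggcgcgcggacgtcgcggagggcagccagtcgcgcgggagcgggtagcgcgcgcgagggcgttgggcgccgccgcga
Each window holds 1 match, GCGTG on the reverse strand in ULK1, with its first base at position -65 from the start, and on the forward strand in ULK2, at position -218.

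ATG13, the regulatory subunit that links the kinase to nutrient sensing by mTORC1, was at 90.6, 85.8 and 90.2 CPM in hESC, 45.1, 43.1 and 39.4 CPM in control NPC and 38.5, 37.3 and 35.9 CPM in BafA1 NPC. It fell with differentiation (log2 change -1.06 ± 0.08, edgeR adjusted p = 2.06e-07). Its BafA1 change of -0.19 ± 0.08 was not called (edgeR adjusted p = 0.0692), although the libraries did not overlap. The change passed the threshold under 4 of 18 alternatives, among them scaling by library size alone, removal of GC and length trends and leaving out control replicate 3. ATG101, which stabilises ATG13, was at 42.8, 40.7 and 43.9 CPM in hESC, 26.8, 26.2 and 20.1 CPM in control NPC and 13.3, 18.0 and 17.8 CPM in BafA1 NPC. Like ULK1 it stepped down at both comparisons without overlap, by log2 changes of -0.80 ± 0.13 (edgeR adjusted p = 0.000224) and -0.58 ± 0.14 (edgeR adjusted p = 0.00548). RB1CC1, the scaffold also called FIP200, fell with differentiation (-0.65 ± 0.10, edgeR adjusted p = 9.9e-05), and its value with BafA1 was -0.22 ± 0.10 (edgeR adjusted p = 0.0888). RB1CC1 was called lower with BafA1 under 4 of 18 alternatives, namely scaling by library size alone and the limma fits on FPKM.

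In the PI3K complex UVRAG rose and PIK3R4 fell in both comparisons, while the call of the catalytic subunit PIK3C3 depended on a correction for GC content and length. Of the 7 genes, 2 fell, 1 rose and 4 were not called in control NPC against hESC (median log2 change 0.00), and the counts were the same with BafA1 (median -0.09). UVRAG, the subunit that directs the complex to endosomes and to vesicle maturation (chromosome 11, 75815210 to 76144232), was at 14.2, 14.2 and 13.3 CPM in hESC, 22.9, 23.5 and 24.1 CPM in control NPC and 32.6, 32.6 and 35.2 CPM in BafA1 NPC. All 3 groups were apart, with an upward step at each comparison. The log2 changes of UVRAG were 0.76 ± 0.08 with differentiation (edgeR adjusted p = 6.46e-06) and 0.51 ± 0.08 with BafA1 (edgeR adjusted p = 0.000523). On the scale of log2(FPKM + 1) in limma the BafA1 value of UVRAG was 0.28. ATG14, the alternative subunit that directs the same complex to autophagosome initiation, was at 19.8 to 25.0 CPM in every NPC library and 21.6 to 23.5 CPM in hESC, and was called in no comparison.

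PIK3R4, the regulatory kinase subunit also called VPS15, was at 50.3, 50.7 and 48.1 CPM in hESC, 36.4, 35.0 and 34.2 CPM in control NPC and 24.8, 24.1 and 23.4 CPM in BafA1 NPC. The groups were apart at each step, and replicates of a group lay within a few CPM of each other. PIK3R4 fell by 0.50 ± 0.07 on the log2 scale with differentiation (edgeR adjusted p = 8.26e-05) and by 0.55 ± 0.07 with BafA1 (edgeR adjusted p = 0.000179). PIK3C3, the catalytic subunit, was at 51.9 to 63.7 CPM in control NPC and 54.4 to 57.6 CPM in BafA1 NPC, with log2 changes of 0.02 and -0.08 that were not called. With GC and length trends removed PIK3C3 was called lower against hESC, both in control NPC (-0.38, edgeR adjusted p = 0.00105) and in BafA1 NPC (-0.36, edgeR adjusted p = 0.00131). BECN1, the scaffold that binds BCL2 family proteins, was at 43.1, 40.2 and 40.5 CPM in hESC, 46.7, 41.6 and 41.7 CPM in control NPC and 31.3, 35.0 and 36.6 CPM in BafA1 NPC. hESC and control NPC overlapped, and all BafA1 libraries of BECN1 lay below both. BECN1 fell with BafA1 (-0.34 ± 0.09, edgeR adjusted p = 0.00914), and its differentiation value was 0.07 ± 0.09 (edgeR adjusted p = 0.494). NRBF2, which supports dimer formation of the ATG14 complex, fell with differentiation (-0.46 ± 0.10, edgeR adjusted p = 0.00118), and its BafA1 value was 0.06 ± 0.10 (edgeR adjusted p = 0.649). AMBRA1, a regulator of BECN1, was called in neither (-0.08 and -0.24). It was called lower with BafA1 under 7 of 18 alternatives, among them the replicate block (edgeR adjusted p = 0.0391) and removal of GC and length trends (-0.31, edgeR adjusted p = 0.0252).

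Among the genes of lipid transfer and membrane supply, members moved in both directions with BafA1. Of the 9 genes, 7 fell and 1 rose with differentiation (median log2 change -0.72), whereas with BafA1 3 rose and 3 fell (median 0.00). WDR45B, a WIPI family protein also called WIPI3 (chromosome 17, 82614562 to 82648444), was at 203, 173 and 214 CPM in hESC, 97.0, 103 and 109 CPM in control NPC and 239, 226 and 349 CPM in BafA1 NPC. The control libraries lay below all others, and the third BafA1 library lay well above the remaining BafA1 libraries. WDR45B fell by 0.93 ± 0.15 on the log2 scale with differentiation (edgeR adjusted p = 0.000178) and rose by 1.39 ± 0.15 with BafA1 (edgeR adjusted p = 5.01e-05). Without BafA1 replicate 3 the rise was 1.17 (edgeR adjusted p = 8.88e-05). Its pseudogene WDR45BP1 had 0 to 6 counts in any library, and 1.5% of the exonic bases of WDR45B are shared with FOXK2 on the opposite strand.

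WDR45, the closest paralog of WDR45B and also called WIPI4, went the other way with BafA1. It was at 18.0, 13.4 and 15.2 CPM in hESC, 11.8, 11.8 and 11.2 CPM in control NPC and 7.68, 7.82 and 8.18 CPM in BafA1 NPC. The control and BafA1 libraries were tight and apart, and WDR45 fell by 0.56 ± 0.12 (edgeR adjusted p = 0.00408). Its fall with differentiation (-0.42 ± 0.12, edgeR adjusted p = 0.00936) was lost with trends of GC content and length removed (-0.04, adjusted p = 0.747) and without hESC replicate 1. WIPI2, which recruits the conjugation machinery through ATG16L1, was at 101, 92.2 and 102 CPM in hESC, 56.4, 51.1 and 45.4 CPM in control NPC and 42.5, 41.6 and 38.9 CPM in BafA1 NPC. It fell at both steps without overlap, by -0.95 ± 0.09 (edgeR adjusted p = 2.34e-06) and -0.31 ± 0.09 (edgeR adjusted p = 0.0177). The BafA1 call of WIPI2 was lost without any one of control replicates 1 and 2 and BafA1 replicate 3 (adjusted p up to 0.0736). WIPI1, its paralog, fell with differentiation (-0.93 ± 0.11, edgeR adjusted p = 1.27e-05), and its mean was 12.3 CPM in both NPC groups.

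ATG9A, the scramblase that travels in vesicles to the growing membrane, was at 63.7, 62.3 and 64.1 CPM in hESC, 37.2, 36.0 and 33.9 CPM in control NPC and 48.3, 41.7 and 51.9 CPM in BafA1 NPC. The BafA1 libraries lay between the other groups and overlapped with neither. ATG9A fell with differentiation (-0.83 ± 0.09, edgeR adjusted p = 6.07e-06) and rose with BafA1 (0.41 ± 0.09, edgeR adjusted p = 0.0037). The rise was lost under 5 of 18 alternatives, among them removal of GC and length trends (0.22, edgeR adjusted p = 0.062) and the limma fits on FPKM. An annotated transcript on the same strand, AC068946.2, shares 38.8% of the exonic bases of ATG9A, so its reads are uncertain. VMP1, a scramblase of the endoplasmic reticulum (chromosome 17, 59707654 to 59842255), was at 78.0, 77.2 and 74.5 CPM in hESC, 106, 103 and 103 CPM in control NPC and 128, 133 and 147 CPM in BafA1 NPC. It was the one lipid transfer gene to rise at both steps, by 0.44 ± 0.08 (edgeR adjusted p = 0.000303) and 0.39 ± 0.08 (edgeR adjusted p = 0.0018). The differentiation call of VMP1 was lost with GC and length trends removed (0.12, adjusted p = 0.204). Its BafA1 call was lost with limma on log2(FPKM + 1) and on log2(FPKM + 0.1).

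ATG2A, a bridge-like lipid transfer protein, was at 27.5, 27.5 and 25.9 CPM in hESC, 18.6, 15.6 and 15.0 CPM in control NPC and 12.2, 10.1 and 10.5 CPM in BafA1 NPC. Each group lay below the one before it. ATG2A fell by 0.72 ± 0.11 with differentiation (edgeR adjusted p = 0.000122) and by 0.59 ± 0.11 with BafA1 (edgeR adjusted p = 0.00167), the former not called with GC and length trends removed (-0.19, adjusted p = 0.135). ATG2B, its paralog, was at 26.9 to 34.2 CPM across the NPC libraries and not called in these fits (0.06 and -0.14). With GC and length trends removed it was called lower against hESC, in control NPC (-0.35, edgeR adjusted p = 0.00517) and in BafA1 NPC (-0.41, edgeR adjusted p = 0.00183). TMEM41B, the partner scramblase of VMP1, fell with differentiation (-0.64 ± 0.12, edgeR adjusted p = 0.00061), and its BafA1 value was 0.05 ± 0.12.

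**Figure D2:**
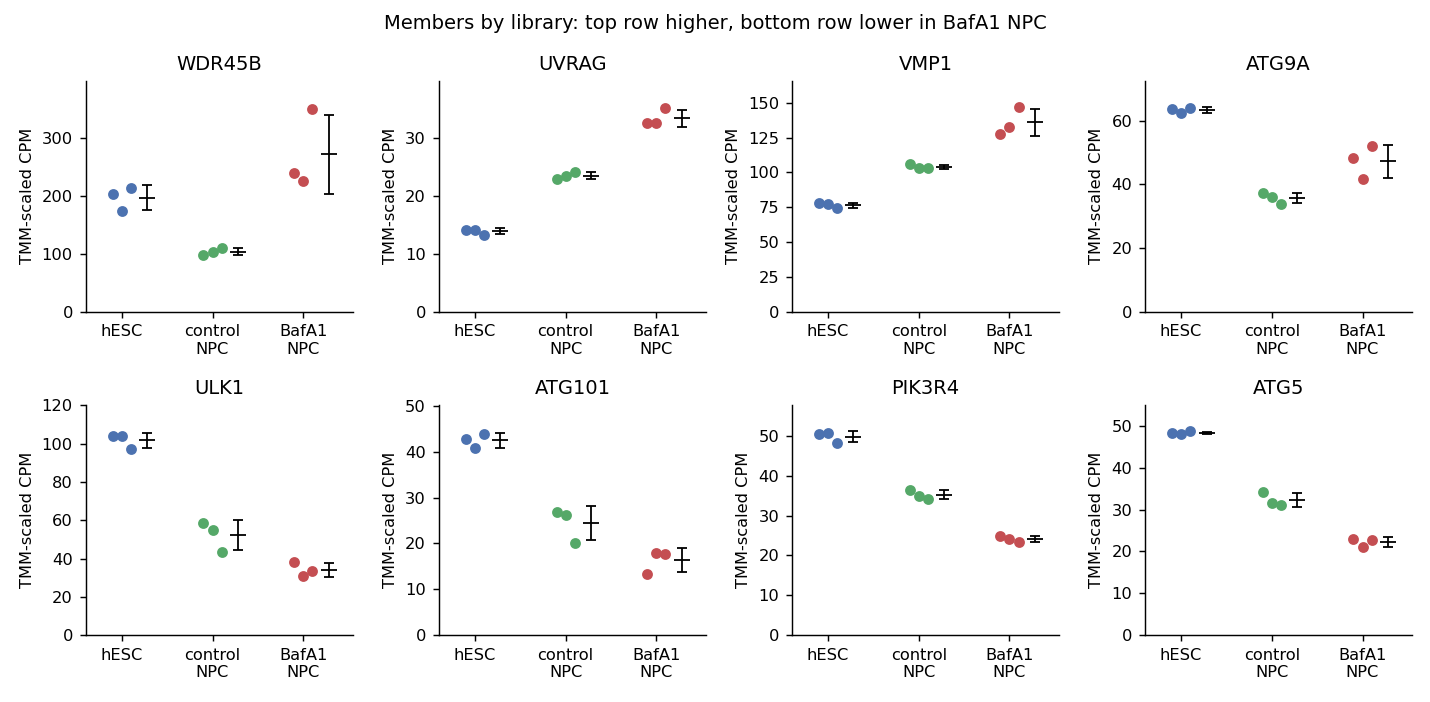
TMM-scaled CPM (y axes, starting at 0) of 8 members in each library, by group on the x axis. Each point is a library, and the black mark and bar beside each group are the mean and SD of 3 libraries. WDR45B, UVRAG, VMP1 and ATG9A (top) are higher and ULK1, ATG101, PIK3R4 and ATG5 (bottom) lower in BafA1 NPC than in control NPC, with no overlap between the libraries of these groups.

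Among the 10 conjugation genes, 6 fell and 2 rose with differentiation (median log2 change -0.38), and with BafA1 3 fell and 2 rose (median -0.01). The subunits of the ATG12-ATG5-ATG16L1 complex, which directs ATG8 proteins to the membrane, did not move together. ATG12, the ubiquitin-like modifier, was at 43.4, 46.9 and 45.9 CPM in hESC, 63.8, 66.6 and 65.6 CPM in control NPC and 71.9, 83.1 and 92.3 CPM in BafA1 NPC. It was lowest in hESC and highest with BafA1, with log2 changes of 0.52 ± 0.09 (edgeR adjusted p = 0.000358) and 0.34 ± 0.09 (edgeR adjusted p = 0.0128). ATG12 lost its BafA1 call under 5 of 18 alternatives (adjusted p up to 0.206), among them leaving out BafA1 replicate 3.

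ATG5, the acceptor of ATG12, was at 48.3, 48.1 and 48.6 CPM in hESC, 34.1, 31.5 and 31.2 CPM in control NPC and 23.0, 21.0 and 22.8 CPM in BafA1 NPC. The order was opposite to that of ATG12, and no groups overlapped. ATG5 fell by 0.58 ± 0.08 with differentiation (edgeR adjusted p = 3.41e-05) and by 0.53 ± 0.08 with BafA1 (edgeR adjusted p = 0.000295). ATG16L1, which ties the pair to the membrane, was at 32.6, 29.8 and 30.6 CPM in hESC, 22.3, 19.5 and 19.0 CPM in control NPC and 15.6, 14.0 and 15.6 CPM in BafA1 NPC. As with ATG5, it fell at both steps (-0.62 ± 0.10, edgeR adjusted p = 0.000118, and -0.42 ± 0.10, edgeR adjusted p = 0.00465). ATG7, the E1 enzyme shared by both conjugation reactions, was at 19.9 to 22.5 CPM in control NPC and 21.4 to 23.0 CPM in BafA1 NPC and was called in no comparison, except against hESC with GC and length trends removed (-0.32 in control NPC and -0.29 in BafA1 NPC). ATG10, the E2 enzyme for ATG12, fell with differentiation (-0.48 ± 0.13, edgeR adjusted p = 0.00614) and just missed a call with BafA1 (0.34 ± 0.13, edgeR adjusted p = 0.0501). ATG10 was called higher with BafA1 under 8 of 18 alternatives, among them DESeq2, the replicate block and leaving out control replicate 3 or BafA1 replicate 1. ATG3, the E2 enzyme for ATG8 proteins, was not called (0.11 and 0.16), except with BafA1 when BafA1 replicate 1 was left out.

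The 4 ATG4 proteases, which prime ATG8 proteins and release them from membranes, split by paralog. ATG4A was at 6.22, 5.84 and 7.01 CPM in hESC, 16.1, 15.1 and 15.1 CPM in control NPC and 11.2, 11.1 and 13.4 CPM in BafA1 NPC. ATG4A rose with differentiation (1.28 ± 0.12, edgeR adjusted p = 2.24e-06), and BafA1 libraries lay between the other groups (-0.37 ± 0.12, edgeR adjusted p = 0.0278). The BafA1 call of ATG4A was lost under 6 of 18 alternatives (adjusted p up to 0.0983), including leaving out either of the first 2 control or BafA1 replicates. ATG4D was at 24.8, 22.1 and 24.1 CPM in hESC, 19.4, 17.3 and 15.7 CPM in control NPC and 20.8, 24.1 and 24.7 CPM in BafA1 NPC. It fell with differentiation (-0.44 ± 0.11, edgeR adjusted p = 0.00357) and rose with BafA1 (0.41 ± 0.11, edgeR adjusted p = 0.0101), back to a level overlapping hESC. With GC and length trends removed neither change of ATG4D was called (0.08 against hESC and 0.09 with BafA1, adjusted p = 0.46 for the latter), and KRI1 overlaps 15.0% of its exonic bases on the opposite strand. ATG4B, the most active of the proteases, and ATG4C both fell with differentiation (-0.37 ± 0.07, edgeR adjusted p = 0.000883, and -0.40 ± 0.10, edgeR adjusted p = 0.00307). Neither was called with BafA1 (-0.20 and -0.07). ATG4B was called lower with BafA1 under 8 of 18 alternatives, among them DESeq2, removal of GC and length trends and leaving out control replicate 3. Its fall with differentiation was lost with GC and length trends removed (-0.06, edgeR adjusted p = 0.496).

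Fusion was the role in which 4 of 7 genes rose and none fell with differentiation (median log2 change 0.28). With BafA1 2 fell and none rose (median -0.18). STX17, the SNARE recruited to closed autophagosomes, was at 31.5, 31.6 and 33.6 CPM in hESC, 58.5, 60.6 and 69.7 CPM in control NPC and 83.4, 68.2 and 66.5 CPM in BafA1 NPC. Control and BafA1 libraries overlapped, and both were far above hESC (0.96 ± 0.10, edgeR adjusted p = 5.71e-06; with BafA1 0.21 ± 0.10, adjusted p = 0.123). SNAP29, the SNARE that bridges STX17 and VAMP8, was at 17.0, 17.3 and 14.7 CPM in hESC, 34.4, 31.1 and 29.6 CPM in control NPC and 25.5, 29 and 29.7 CPM in BafA1 NPC. It showed the same layout as STX17, with a rise of 0.95 ± 0.10 against hESC (edgeR adjusted p = 5.62e-06) and no call with BafA1 (-0.18 ± 0.10, edgeR adjusted p = 0.182). SNAP29 was called lower with BafA1 under 4 of 18 alternatives, namely scaling by library size alone and the limma fits on FPKM. VAMP8, the SNARE of the lysosomal side, was at 19.3, 17.8 and 20.1 CPM in hESC, 28.3, 25.6 and 15.8 CPM in control NPC and 14.0, 20.1 and 16.4 CPM in BafA1 NPC. All groups overlapped and VAMP8 was called in no comparison (0.28 ± 0.19 and -0.46 ± 0.19, edgeR adjusted p = 0.216 and 0.0726). The third control library was lower than the other control libraries, and without it VAMP8 was called in both comparisons. VAMP8 was called lower with BafA1 under 6 of 18 alternatives, among them scaling by library size alone, removal of GC and length trends and leaving out BafA1 replicate 2.

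TECPR1, a tether that binds the ATG12-ATG5 conjugate, was at 14.0, 14.7 and 14.4 CPM in hESC, 25.3, 23.8 and 22.0 CPM in control NPC and 25.1, 22.0 and 21.4 CPM in BafA1 NPC. It rose with differentiation (0.72 ± 0.10, edgeR adjusted p = 3.8e-05), and the NPC groups overlapped (-0.06 ± 0.10, edgeR adjusted p = 0.672). With GC and length trends removed TECPR1 was called lower with BafA1 (-0.34, edgeR adjusted p = 0.0175). PLEKHM1, an adaptor that links RAB7 and the HOPS tethering complex to the autophagosome, was at 12.1, 12.0 and 10.9 CPM in hESC, 14.9, 13.3 and 11.0 CPM in control NPC and 9.98, 8.56 and 6.94 CPM in BafA1 NPC. BafA1 libraries were below all others, and PLEKHM1 fell by 0.62 ± 0.16 with BafA1 (edgeR adjusted p = 0.00774). Its pseudogene PLEKHM1P1 had 134 to 348 counts per library, so the split of reads between the copies is uncertain. RUBCN, which restrains UVRAG-dependent maturation, was at 13.1, 13.8 and 14.1 CPM in hESC, 17.9, 16.0 and 15.8 CPM in control NPC and 13.6, 12.7 and 13.0 CPM in BafA1 NPC. Control NPC stood above the other groups, with a rise of 0.28 ± 0.10 (edgeR adjusted p = 0.0243) and a fall with BafA1 of 0.34 ± 0.10 on the log2 scale (edgeR adjusted p = 0.0167). The rise of RUBCN was lost under 7 of 18 alternatives, including each fit that left out control replicate 1 or 1 of the first 2 hESC replicates, and the fall without control replicate 1. EPG5, a tether of autophagosomes to late endosomes, was at 26.2 to 35.8 CPM in all libraries and was not called, except in control NPC against hESC with GC and length trends removed (-0.26, edgeR adjusted p = 0.0256).

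**Figure D3:**
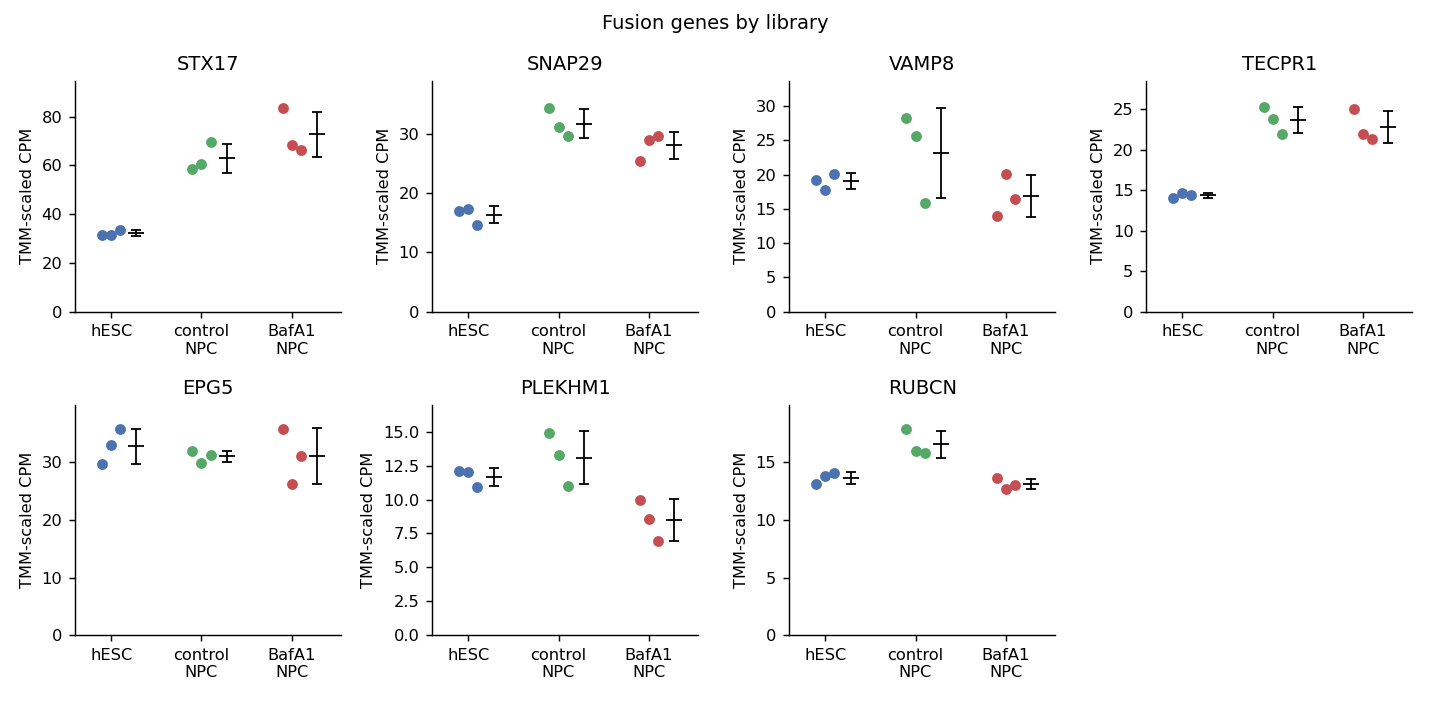
TMM-scaled CPM (y axes, starting at 0) of the 7 fusion genes in each library, by group on the x axis. Points are libraries, and black marks and bars are the mean and SD of 3 libraries. STX17, SNAP29 and TECPR1 are higher in both NPC groups than in hESC, and the third control library of VAMP8, at 15.8 CPM, lies below the other control libraries.

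Within paralog families some shares differed between the 3 groups, and those of WDR45B, ATG4A and ATG4D changed direction at the BafA1 step. Levels of different genes are compared here as FPKM, which divides by transcript length. ULK1 made up 90.1 ± 0.651% of the summed FPKM of ULK1 and ULK2 in hESC, 68.5 ± 4.40% among control NPC and 52.3 ± 2.66% with BafA1 (SD, n = 3). The share of ULK1 was therefore near that of ULK2 in BafA1 NPC. ATG2A made up 64.1 ± 1.09%, 50.7 ± 3.01% and 43.3 ± 1.25% of both ATG2 genes, with ATG2B at 56.7 ± 1.25% in the last. WDR45B made up 89.0 ± 1.13%, 84.9 ± 1.07% and 95.5 ± 0.844% of the WDR45 pair. ATG4A made up 5.59 ± 0.415%, 15.8 ± 0.245% and 12.1 ± 0.808% of the 4 ATG4 genes, and ATG4B 50.7 ± 0.146%, 45.6 ± 0.907% and 41.5 ± 2.22%. The share of ATG4D was 24.4 ± 0.929%, 21.2 ± 1.48% and 29.4 ± 2.01%. For these shares no groups overlapped, and a two-sided exact permutation test of 3 against 3 gave p = 0.1, the smallest it allows. WIPI1 made up 35.2 ± 1.22%, 35.9 ± 3.42% and 40.4 ± 2.40% of the WIPI1 and WIPI2 sum. Its control libraries overlapped with those of hESC and of BafA1 (exact p = 0.2 for BafA1 against control). ATG4C made up 19.3 ± 1.26%, 17.4 ± 2.17% and 17.1 ± 0.531% of the 4 ATG4 genes. Its control libraries also overlapped with those of hESC (exact p = 0.3) and of BafA1 (exact p = 0.8).

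**Figure D4:**
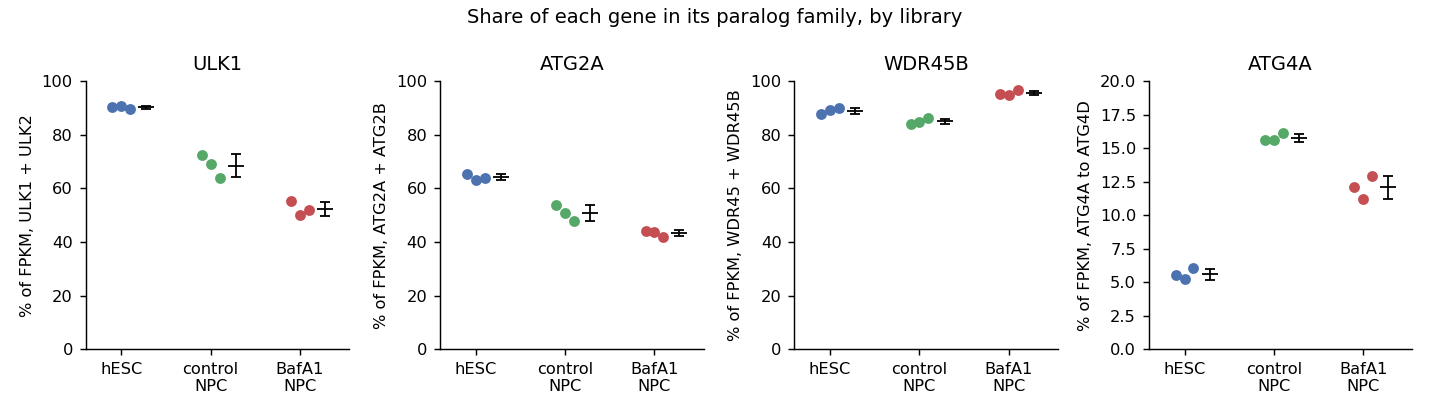
Share of ULK1, ATG2A, WDR45B and ATG4A in the summed FPKM of their paralog families (y axes, %), by group on the x axis. Points are libraries, and black marks and bars are the mean and SD of 3 libraries. The ULK1 share falls from 90.1% in hESC to 52.3% in BafA1 NPC, and the ATG4A axis ends at 20%.

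Over all members the summed FPKM was 431 ± 17.6 for hESC, 357 ± 18.2 for control NPC and 364 ± 38.1 with BafA1 (SD, n = 3). The initiation genes summed to 73.4 ± 2.04, 44.2 ± 3.75 and 32.1 ± 2.13 FPKM, and no library of a group reached the range of another. Lipid transfer genes summed to 156 ± 10.6, 105 ± 2.06 and 154 ± 29.7 FPKM, of which WDR45B alone gave 67.4, 36.6 and 86.7. Fusion genes summed to 39.0 ± 1.73, 55.2 ± 9.53 and 41.6 ± 0.923 FPKM, to which VAMP8 gave 23.9, 30.4 and 19.8. In control NPC the highest levels per length were WDR45B, VAMP8, VMP1 at 24.4, ATG3 at 20.5 and BECN1 at 18.6 FPKM, and the lowest RUBCN at 1.67 FPKM. VAMP8, at 30.4 ± 8.90 FPKM, did not differ from VMP1 beyond its spread.

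**Figure D5:**
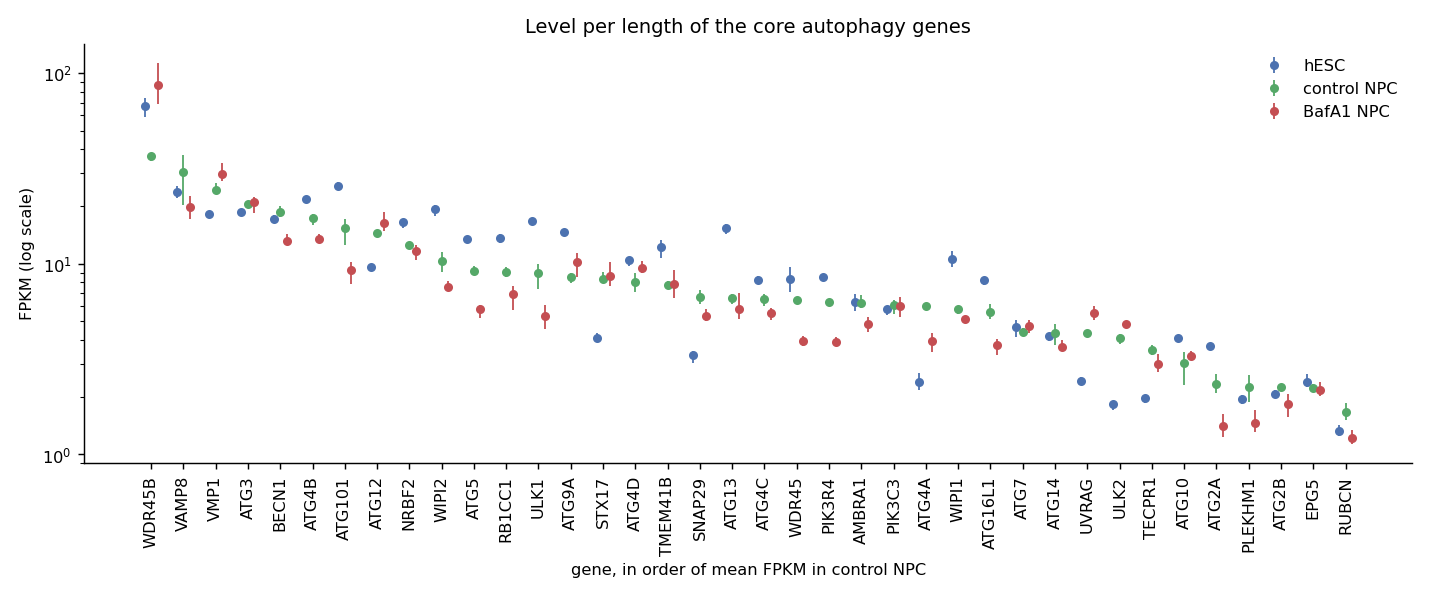
FPKM (y axis, log scale) of the 38 genes in order of their mean in control NPC (x axis), with points at group means and bars from the lowest to the highest of 3 libraries. WDR45B is the highest in every group, and RUBCN, at 1.67 FPKM in control NPC, the lowest.

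Against hESC, 29 of 38 members (76.3%) were called in BafA1 NPC, with 70.4% of all genes tested. Of the members 19 were lower (50.0%, against 34.8% of all genes) and 10 higher (26.3%, against 35.5%), with a median of -0.22 against 0.02 for all genes. This comparison shares its libraries with both others. ULK1 fell (-1.57 ± 0.12, edgeR adjusted p = 1.93e-07), and rises were seen for ULK2 (1.29 ± 0.08, edgeR adjusted p = 6.82e-08) and UVRAG (1.27 ± 0.08, edgeR adjusted p = 6.73e-08). ATG101 (-1.38), ATG2A (-1.30), WIPI2 (-1.26), ATG13 (-1.25) and ATG5 (-1.12) also fell, and STX17 (1.17), ATG4A (0.91), ATG12 (0.86) and VMP1 (0.83) rose. ATG4D (-0.03) and RUBCN (-0.06) were not called against hESC. ATG3 was called higher (0.27 ± 0.10, edgeR adjusted p = 0.0359) although its libraries overlapped, and lost the call under 15 of 18 alternatives, including leaving out any hESC library or BafA1 replicate 2 or 3. WDR45B was above hESC (0.46 ± 0.15, edgeR adjusted p = 0.015), a call lost under 5 alternatives, including without BafA1 replicate 3 or hESC replicate 2.

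The surrounding pathway was read from 75 further genes, of which 25 rose (33.3%, against 20.8% of all genes tested) and 16 fell (21.3%, against 20.7%) with BafA1. With differentiation 32 rose (42.7%, against 33.0%) and 20 fell (26.7%, against 31.6%). Of 24 ATG8 proteins and receptors 9 rose (37.5%) and 2 fell (8.33%) with BafA1, and 12 rose (50.0%) and 6 fell (25.0%) with differentiation. OPTN, a receptor for ubiquitinated cargo, rose in both (log2 changes of 1.08 ± 0.13 and 2.02 ± 0.14, edgeR adjusted p = 8.21e-05 and 9.52e-08), and BNIP3, a mitophagy receptor, rose with BafA1 (1.45 ± 0.20, edgeR adjusted p = 0.000175). MAP1LC3B was at 87.5 ± 3.87 CPM in control NPC and 94.1 ± 11.2 CPM in BafA1 NPC and SQSTM1 at 86.2 ± 14.8 and 83.0 ± 8.79 CPM, neither called (both named outside the rule). Of 19 genes of mTORC1 and AMPK control 7 rose (36.8%) and 2 fell with BafA1. Among them DDIT4, an mTORC1 inhibitor, rose (1.72 ± 0.23, edgeR adjusted p = 0.000147) and MTOR, the kinase that restrains ULK1, fell (-0.89 ± 0.12, edgeR adjusted p = 0.000171). PRKAB2 (0.81 ± 0.12, edgeR adjusted p = 0.000387) and MLST8 (0.55 ± 0.09, edgeR adjusted p = 0.000437) also rose. Of 14 tethering and fusion partners 3 rose (21.4%, near the share of all genes) and 5 fell (35.7%), with VPS18, a HOPS subunit, lower (-0.93 ± 0.11, edgeR adjusted p = 8.37e-05). Of 18 other regulators and paralogs 6 rose (33.3%) and 7 fell (38.9%), among them HMGB1, which binds BECN1, lower (-1.06 ± 0.09, edgeR adjusted p = 1.89e-05) and TFE3, a transcription factor of lysosomal and autophagy genes, higher (0.60 ± 0.11, edgeR adjusted p = 0.000955). In differentiation FOXO1 fell (-2.73 ± 0.11, edgeR adjusted p = 1.73e-09) and TP53INP1 rose (2.60 ± 0.11, edgeR adjusted p = 2.08e-09).

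Promoter windows were found for 32 of 38 members. RB1CC1, UVRAG, WDR45B, ATG4D, STX17 and EPG5 had no entry. The E-box CACGTG, bound by the TFEB family, MYC and USF, was in 4 of 32 windows (12.5%), those of ATG14, NRBF2, ATG3 and SNAP29, and in 9.54% of the windows of tested genes. The full CLEAR element of the TFEB family, which extends CACGTG by 2 letters on each side, was in 0 of 32, against 0.641%, and the ATF4 element TGATGNAA in 0 of 32, against 1.89%. Both strands were searched. ACGTG, which is part of CACGTG, was in 12 of 32 windows (37.5%, against 25.3%), and GCGTG in 18 (56.2%, against 47.8%). These are matches of letters and not shown sites. The windows of VMP1 (chr17:59707404-59707703, plus strand, ACGTG or GCGTG in capitals on either strand) and ATG3 (chr3:112561913-112562212, minus strand, CACGTG in capitals) are shown as examples. VMP1 held 3 matches and rose at both steps. ATG3 held the E-box at 2 places and ACGTG at 7, unmarked outside the E-box, and was called neither with differentiation nor with BafA1. ATG12, with ACGTG at 1 place and GCGTG at 2, rose at both steps. ATG101, PIK3R4 and WIPI2, each with GCGTG at 2 places and no ACGTG, fell at both steps. Other members went the other way. ATG13 and ATG10, each with ACGTG at 1 place, fell with differentiation (-1.06 and -0.48). ULK2, with GCGTG at 1 place and no ACGTG, rose at both steps. RUBCN, with GCGTG at 2 places and no ACGTG, rose with differentiation and fell with BafA1. A link between matches and changes was not tested.
VMP1: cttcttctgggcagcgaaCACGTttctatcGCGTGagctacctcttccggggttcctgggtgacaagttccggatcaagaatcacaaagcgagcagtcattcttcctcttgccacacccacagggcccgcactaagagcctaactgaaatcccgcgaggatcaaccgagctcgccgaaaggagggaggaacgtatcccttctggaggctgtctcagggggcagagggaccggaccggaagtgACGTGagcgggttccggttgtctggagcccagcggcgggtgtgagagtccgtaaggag
ATG3: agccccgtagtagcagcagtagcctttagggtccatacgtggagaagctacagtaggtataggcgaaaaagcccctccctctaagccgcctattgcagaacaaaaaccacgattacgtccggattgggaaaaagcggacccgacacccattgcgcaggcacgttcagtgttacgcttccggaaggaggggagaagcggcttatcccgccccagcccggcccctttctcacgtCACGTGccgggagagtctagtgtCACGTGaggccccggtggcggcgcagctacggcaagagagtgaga

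The ratio of count to FPKM follows the length of the transcripts to which reads were assigned, and was tested in 35 members with limma. Of the members 0 were called in BafA1 NPC against control NPC, with 1.77% of all genes called, and 0 in control NPC against hESC, with 2.54%. At an unadjusted p under 0.05 were 7 of 35 members in the former, against 14.5% of all genes, and 3 of 35 in the latter, against 14.1%. In BafA1 NPC against hESC 1 was called, with 6.4% of all genes called, and 6 of 35 were at an unadjusted p under 0.05, against 20.1%. That member was ULK2, whose effective length was 12.8% shorter (log2 -0.20 ± 0.03, limma adjusted p = 0.0199). The value for ULK2 in BafA1 NPC against control NPC was -0.14 ± 0.03 (limma adjusted p = 0.0946). The call was lost with a replicate block and without hESC replicate 2, hESC replicate 3 or BafA1 replicate 3.

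Overlapping genes limit some of these values, since the kit is stranded but the strand setting used in counting is not stated in the labels. Genes on the opposite strand share 24.3% of the exonic bases of WIPI1 (ARSG), 19.2% of ATG101 (AC025259.1), 18.1% of ATG7 (VGLL4) and 12.4% of BECN1 (CNTD1). PRAF2 shares 13.9% of those of WDR45 on the same strand. The median GC content was 49.5% for members that rose with BafA1, 54.5% for those that fell and 46.6% for those not called. Removing trends of GC content and length kept the following members called but moved by over 1.5 times the differentiation values of ULK1 to -0.40, ATG101 to -0.36, PIK3R4 to -0.81, NRBF2 to -0.70, ATG9A to -0.48, ATG4C to -0.87, ATG5 to -0.91, ATG12 to 0.24, RUBCN to 0.61 and TECPR1 to 1.15. The BafA1 value of ATG5 became -0.34.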

How the data were processed

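Messenger RNA of 9 H9 libraries was sequenced, in 3 groups of 3 taken from the sample titles. Per the labels' protocols the kit was a stranded one for mRNA. Trimmomatic and GRCh38 are named in the submitters' processing notes, with aligner and counter not given in the sources used here. Raw whole-number counts of reads for each gene were deposited, and so were FPKM per gene and library, per the file headers. Columns named as control were matched to the untreated NPC by replicate number. There were 0 columns of other samples.

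Counts were tested with edgeR 4.0.16 in R 4.3.3 (filterByExpr, TMM, glmQLFit and glmQLFTest, 1 term per group over all 9 libraries, two-sided, Benjamini-Hochberg over 20685 genes). Count to FPKM ratios were tested with limma 3.58.1 in genes with at least 50 counts per library. Alternatives were DESeq2 1.42.0 and its size factors, library size alone, other filters, limma on log2(FPKM + 1) and log2(FPKM + 0.1), removal of GC and length trends (GC known for 84.5% of tested genes), a replicate block and leaving out each library. Methods were tested on simulated data. Promoters and coordinates came from RefSeq, exon overlaps from GENCODE, with Python 3.11.15. Named genes are, in each comparison, up to 6 called members per direction with the largest change and no overlap, fixed paralogs and core genes, and up to 4 genes of each further list by adjusted p. The members and lists were chosen with earlier results of these data known.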

Additional observations from a re-analysis of the deposited data

How the results depend on the processing

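With BafA1, 2 of the 7 rises (UVRAG and WDR45B) and 9 of the 12 falls (ULK1, ATG101, BECN1, PIK3R4, ATG2A, WDR45, ATG5, ATG16L1 and PLEKHM1) were called in all 18 alternatives. With differentiation, 7 of 9 rises and 15 of 19 falls were. The 7 BafA1 rises became 2 with limma on log2(FPKM + 1), 2 on log2(FPKM + 0.1) and 3 with FPKM of at least 1 in 3 libraries, and the 12 falls became 16, 16 and 17. Over all genes limma on log2(FPKM + 1) gave 2520 higher and 5268 lower with BafA1, against 4309 and 4277 in edgeR. With GC and length trends removed 6 members rose and 16 fell with BafA1. Leaving out 1 library at a time gave 5 to 8 rises and 9 to 15 falls with BafA1, 8 to 10 and 18 to 19 with differentiation, and 8 to 10 and 16 to 19 for BafA1 NPC against hESC. Members with a changed effective length numbered 0 to 2 with BafA1, 0 with differentiation and 0 to 3 for BafA1 NPC against hESC when 1 library was left out, and without BafA1 replicate 3 the 1 called was PLEKHM1, not ULK2.

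Deviations of same-numbered libraries from their group means correlated at -0.055 to 0.088, so the numbers were not taken as pairs. With the replicate block 8 members rose and 13 fell with BafA1, 9 and 19 with differentiation and 9 and 19 for BafA1 NPC against hESC, and the 1 effective length call of the last became 0. With GC and length trends removed, with and without the block, 3 members changed sign against hESC in control NPC and were called before or after. They were PIK3C3 (-0.38 and -0.38), ATG2B (-0.35 and -0.35) and ATG4D (0.08 and 0.08). Sign changes of members called neither before nor after were not counted. In the same fits PIK3C3, ATG2B, ATG7 and EPG5 were called lower and PLEKHM1 higher. ATG2A, WDR45, VMP1, ATG4B and ATG4D were no longer called. The cause was not tested. Against hESC in BafA1 NPC, BECN1 and AMBRA1 were not called without hESC replicate 1, nor PLEKHM1 without BafA1 replicate 3, hESC replicate 1 or hESC replicate 2. The smallest count of a member in a library was 317 (ATG4A, in hESC).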
